A study of Mus musculus with 48 samples.

Results

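The TGF-β genes described here are the ligands Tgfb1, Tgfb2 and Tgfb3, the receptors Tgfbr1 and Tgfbr2, and the target genes Tgfbi and Smad7. These 7 genes were taken by name from the 24264 transcripts of the read count table, with earlier results of these data known but by a rule that uses no measured value, and they were followed through all 20 conditions of a comparison of MKOS and OKMS reprogramming. TGF-β ligands are secreted in a latent form, bind TGFBR2, which recruits and phosphorylates TGFBR1, and the active receptor phosphorylates SMAD2 and SMAD3, which then enter the nucleus with SMAD4. In mouse embryonic fibroblasts (MEFs) the pathway maintains mesenchymal genes, and its inhibition is known to favor mesenchymal-to-epithelial transition and reprogramming to induced pluripotent stem cells (iPSCs).

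MKOS and OKMS are polycistronic cassettes of the 4 reprogramming factors (c-Myc, Klf4, Oct4 and Sox2), named by the order of the factors. Both were induced with doxycycline from the same locus in transgenic (Tg) MEFs that also carried a Nanog-GFP reporter, and the OKMS cassette encodes a shorter Klf4 lacking N-terminal residues. The Tg MEFs were obtained from chimeric embryos of targeted embryonic stem cells (ESCs) and were mixed as a minority with wild-type (WT) MEFs for reprogramming, in ESC medium with LIF and vitamin C. On day 10, cells were sorted by E-cadherin (E-CAD), CD44, ICAM1 and Nanog-GFP, where gate 2 is low in CD44 and ICAM1, gate 3 is low in CD44 and high in ICAM1, and NG stands for Nanog-GFP. For the intermediates as a whole, the labels name both 10 and 15 days of culture. Sorted were MKOS E-CAD+ 2NG-, 3NG- and 3NG+ cells, OKMS E-CAD- 2NG- and 3NG- cells, and OKMS E-CAD+ 2NG-, 3NG- and 3NG+ cells, with 3 libraries each. The remaining conditions had 2 libraries each. They were WT, MKOS and OKMS MEFs without induction, the ESC lines E14, TNG (the parental Nanog-GFP line), TNG MKOS and TNG OKMS, MKOS and OKMS iPSCs cultured without doxycycline or in 2i, and the piggyBac-derived MKOS iPSC line D6.

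Libraries were made with the STRT method, which reads the 5′ end of transcripts, and held 1429717 to 14174725 reads on transcripts, with a median of 6243255. Levels are given as CPM, which are counts scaled to 1000000 transcript reads per library, and 3 reads, taken as the floor of detection, corresponded to 0.212 to 2.10 CPM depending on the library. Fibroblast markers (8 genes, summed) were at 2114 to 3252 CPM in MEFs and at 5.32 to 12.1 CPM in ESCs, and pluripotency markers (6 genes, summed) were at 2.11 to 11.8 CPM in MEFs and at 11284 to 18180 CPM in ESCs, with Nanog at 0 in every MEF library. Cdh1, which encodes E-CAD, averaged 25.4 and 11.5 CPM in OKMS E-CAD- 2NG- and 3NG- cells and 165 and 143 CPM in the corresponding E-CAD+ cells. Macrophage markers (5 genes, summed) reached 1790 CPM in sorted cells. They were highest in MKOS E-CAD+ Nanog-GFP- libraries (149 to 1790 CPM) and lower in OKMS E-CAD+ Nanog-GFP- libraries (23.3 to 359 CPM). Most of this sum was Lyz2, and Ptprc, which encodes CD45, was at 0 in 9 of 24 sorted libraries and did not exceed 2.83 CPM in the others. Csf1r, Emr1 and Cd68 reached 11.3, 7.97 and 36.1 CPM in sorted libraries and were at 0 in 3, 5 and 0 of the 24. In the 18 ESC and iPSC libraries, Ptprc and Emr1 were at 0 throughout, while Cd68 reached 20.6 CPM. Because 10 sorted libraries exceeded 500 CPM, tests were repeated without them, and calls of the 7 genes that were lost are given with their values. In these pooled cells, fewer cells of a type and less RNA per cell cannot be told apart.

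4 of the genes, all of which fell from MEFs to ESCs, are shown with the 250 bases before their transcription start (RefSeq, GRCm38.p6, 5′ to 3′ on the strand of the gene), to display which short motifs stand before them. The Tgfbi window is chr13:56609336-56609585 (plus strand), the Tgfbr2 window chr9:116175364-116175613 (minus strand), the Tgfb2 window chr1:186705990-186706239 (minus strand, before a start that lies inside the full gene record) and the Tgfbr1 window chr4:47352972-47353221 (plus strand). Capitals mark matches on either strand to the SMAD motif CAGAC, the AP-1 motif TGANTCA, the SP1/KLF motif GGGCGG, the box CCAAT, the TATA box as TATAAA, the E-box CACGTG and the octamer ATGCAAAT.
Tgfbi: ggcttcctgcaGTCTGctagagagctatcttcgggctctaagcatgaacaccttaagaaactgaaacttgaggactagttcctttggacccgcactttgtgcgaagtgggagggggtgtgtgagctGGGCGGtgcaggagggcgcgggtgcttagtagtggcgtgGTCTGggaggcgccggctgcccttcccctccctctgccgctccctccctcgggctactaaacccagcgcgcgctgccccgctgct
Tgfbr2: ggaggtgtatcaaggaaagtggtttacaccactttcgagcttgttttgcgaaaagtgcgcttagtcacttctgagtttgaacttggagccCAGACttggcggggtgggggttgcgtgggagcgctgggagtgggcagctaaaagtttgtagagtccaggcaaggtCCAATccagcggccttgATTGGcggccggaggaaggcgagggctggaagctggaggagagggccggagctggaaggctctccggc
Tgfb2: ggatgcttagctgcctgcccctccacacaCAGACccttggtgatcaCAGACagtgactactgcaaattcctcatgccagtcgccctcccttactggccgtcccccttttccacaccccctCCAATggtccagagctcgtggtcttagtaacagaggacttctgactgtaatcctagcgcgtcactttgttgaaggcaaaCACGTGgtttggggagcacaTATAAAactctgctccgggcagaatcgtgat
Tgfbr1: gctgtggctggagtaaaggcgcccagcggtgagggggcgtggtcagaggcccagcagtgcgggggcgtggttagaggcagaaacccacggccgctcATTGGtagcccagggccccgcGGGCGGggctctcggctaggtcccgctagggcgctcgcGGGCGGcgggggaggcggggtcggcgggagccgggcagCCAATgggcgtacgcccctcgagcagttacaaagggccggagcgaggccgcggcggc

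CAGAC, in either direction, stood 2 times before Tgfbi and Tgfb2 and 1 time before Tgfbr2, and no match lay in the Tgfbr1 window. Of 32851 mouse promoters of the same length, 42.2% held CAGAC. The SP1/KLF motif GGGCGG, held by 32.7% of promoters, stood 2 times before Tgfbr1 and 1 time before Tgfbi. CCAAT, held by 33.8%, stood 2 times before Tgfbr2 and Tgfbr1 and 1 time before Tgfb2. TATAAA (12.4% of promoters) and CACGTG (6.02%) were found before Tgfb2, with first bases 31 and 51 bases before its start. TGANTCA (6.75%) and ATGCAAAT (1.6%) had no match in the 4 windows, and no capitals overlapped. The window before Tgfb1, which also fell from MEFs to ESCs, was searched too and is not printed. It held GGGCGG 5 times and no match to CAGAC or the other motifs. In RefSeq annotation of GRCm38 the genes extend over chr13:56609586-56639359 (Tgfbi), chr9:116087695-116175363 (Tgfbr2), chr1:186622787-186709697 (Tgfb2), chr4:47353222-47414926 (Tgfbr1), chr7:25687002-25705077 (Tgfb1), chr12:86056743-86079041 (Tgfb3) and chr18:75367365-75395935 (Smad7). Reads of the genes were unique to their locus, with at least 99.9% of reads uniquely placed for each gene.

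To learn which of these genes distinguish the start and the end of reprogramming, the 6 MEF libraries were compared with the 8 ESC libraries. Of the 7 genes, 6 fell from MEFs to ESCs and none rose (edgeR quasi-likelihood test, Benjamini-Hochberg FDR of at most 0.05), beside 30.4% of 15630 tested genes called lower and 60.1% called in either direction. The median log2 change was -6.40 over the 7 genes and 0 over all tested genes. Tgfb2, Tgfb3 and Tgfbr2 were nearly absent from ESCs, Tgfbr1 was retained at a lower level, and Smad7 remained detectable in every library. The plot of CPM by condition shows these levels.

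**Figure D1:**
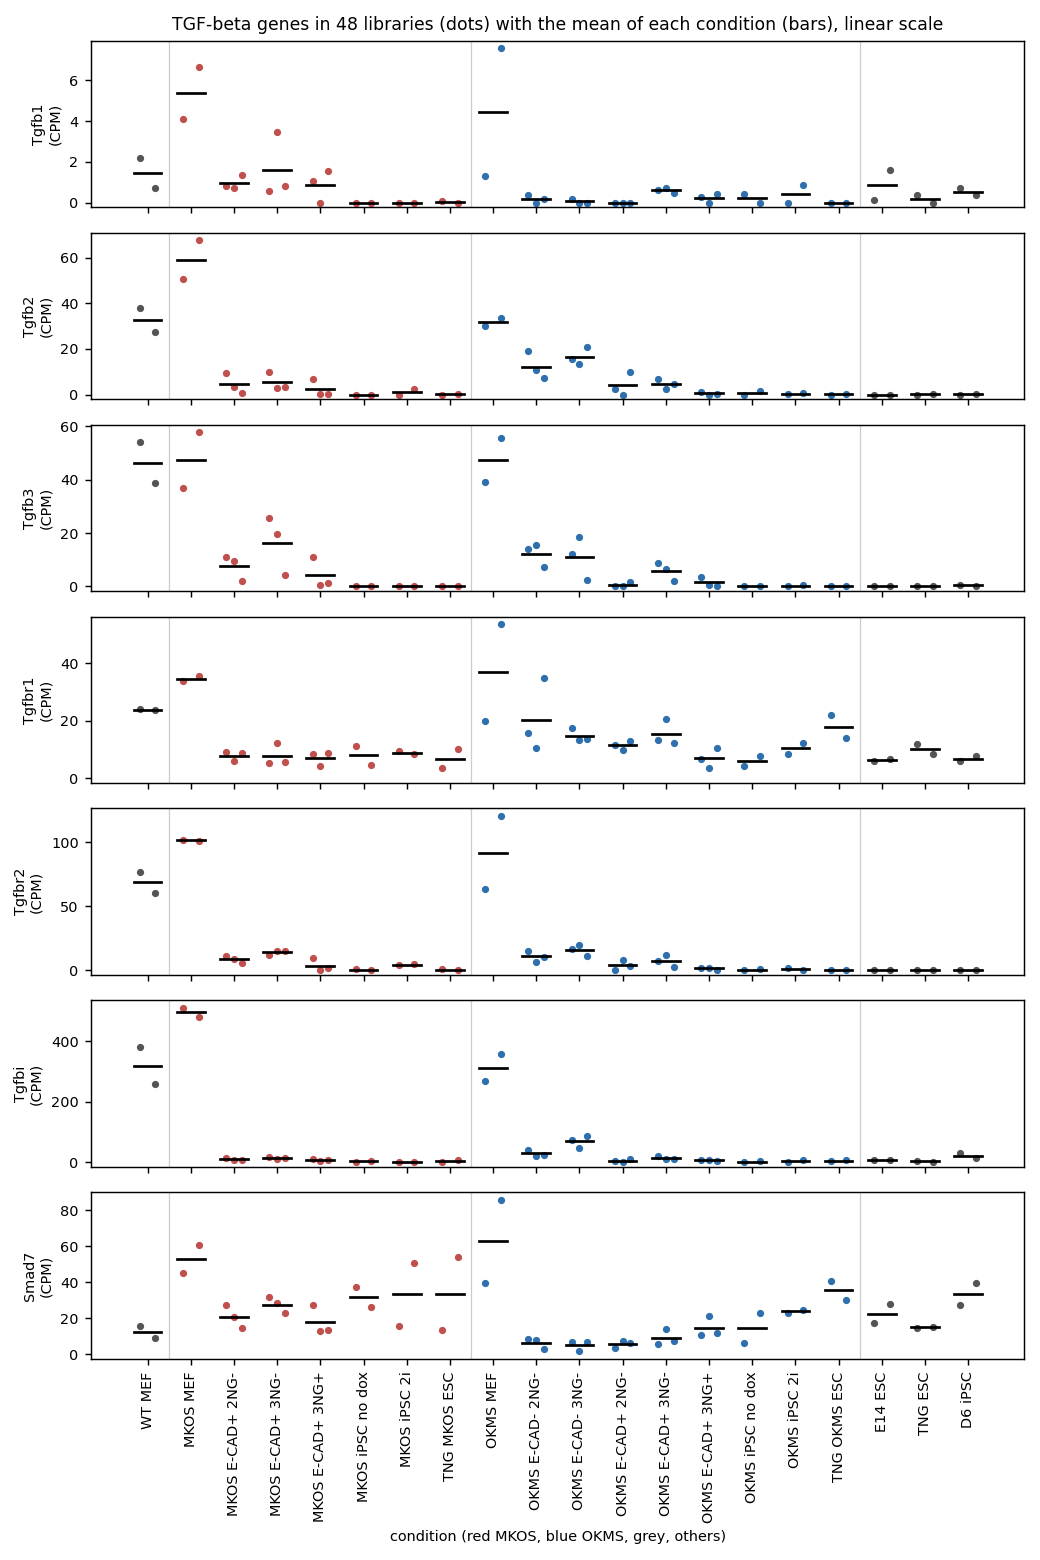
CPM (linear scale) of each TGF-β gene in 48 libraries (dots) of 20 conditions, with bars at the mean of each condition. Tgfbi was at 257 to 509 CPM in MEFs and at no more than 87.1 CPM in any sorted library, while Smad7 was higher in MKOS than in OKMS E-CAD+ Nanog-GFP- libraries.

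Tgfb2, a ligand of developing mesenchyme, was at 27.2, 35.7 and 67.6 CPM in MEFs (lowest, median, highest) and at 0 to 0.328 CPM in ESCs, with 8 reads in the 8 ESC libraries together. Tgfb3, a ligand known from palate and tendon development, was at 36.9, 46.8 and 57.8 CPM in MEFs and under 3 reads in all 8 ESC libraries, with 4 reads in total. Neither ligand overlapped between MEFs and ESCs, and the ESC means were 0.268% and 0.119% of the MEF means. Fitted log2 changes were -8.66 ± 0.88 (SE, FDR = 5.89e-11) for Tgfb2 and -9.51 ± 0.83 (FDR = 1.08e-12) for Tgfb3 by edgeR's quasi-likelihood test. Each of these comparisons included an ESC condition with no read, so the size of the fitted change depends on the prior count of the fit. Tgfb1, the ligand best known from immune and wound tissue, was low already in MEFs, at 0.730, 3.14 and 7.56 CPM, and at 0 to 1.61 CPM in ESCs, with an overlap between them and 6 of 8 ESC libraries under 3 reads. Its log2 change was -4.61 ± 1.06 (FDR = 2.91e-04), and the size of this change also depends on the prior count, since TNG OKMS ESCs had no read.

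Both receptors fell. Tgfbr2, the ligand-binding type II receptor, was at 60.6, 89.0 and 120 CPM in MEFs and had 9 reads in the 8 ESC libraries, 6 of which were at 0. The fitted change was -10.32 ± 0.79 (FDR = 2.48e-14) and its size again depends on the prior count, since 2 ESC conditions had no read. Tgfbr1, the type I receptor that phosphorylates SMAD2 and SMAD3, was at 19.9, 28.8 and 53.7 CPM in MEFs and at 3.52, 9.29 and 22.0 CPM in ESCs, which overlapped. It fell 3.27-fold (log2 change -1.71 ± 0.28, FDR = 1.80e-06), and the ESC mean was 32.6% of the MEF mean.

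Tgfbi, which encodes a secreted matrix protein and is a classical TGF-β-induced gene, was at 257, 369 and 509 CPM in MEFs and at 1.37, 4.57 and 8.67 CPM in ESCs, without overlap. It fell 84.3-fold (log2 change -6.40 ± 0.43, FDR = 2.07e-16). Smad7, which encodes an inhibitory SMAD that is induced by the pathway and blocks TGFBR1, was at 9.13, 42.4 and 85.7 CPM in MEFs and at 13.2, 22.5 and 53.8 CPM in ESCs. This difference did not pass the test (log2 change -0.44, 95% interval -1.05 to 0.16, FDR = 0.222).

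The MEFs themselves were uneven for Smad7. WT MEFs were at 15.6 and 9.13 CPM, MKOS MEFs at 45.1 and 60.5 CPM, and OKMS MEFs at 39.7 and 85.7 CPM, so all 4 Tg libraries exceeded both WT libraries. Smad7 was the member called between WT and Tg MEFs (log2 change 2.16 ± 0.55, FDR = 0.0479), where 0.250% of genes were called higher and 0.717% in all. The call was lost without WT replicate 1 (FDR = 0.217), WT replicate 2 (0.878), MKOS MEF replicate 1 (0.0695), MKOS MEF replicate 2 (0.142) or OKMS MEF replicate 2 (0.183). Against Tg MEFs alone, Smad7 also fell to ESCs (log2 change -1.16 ± 0.34, FDR = 0.00334), and then all 7 genes were called lower, beside 29.5% of tested genes.

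**Figure D2:**
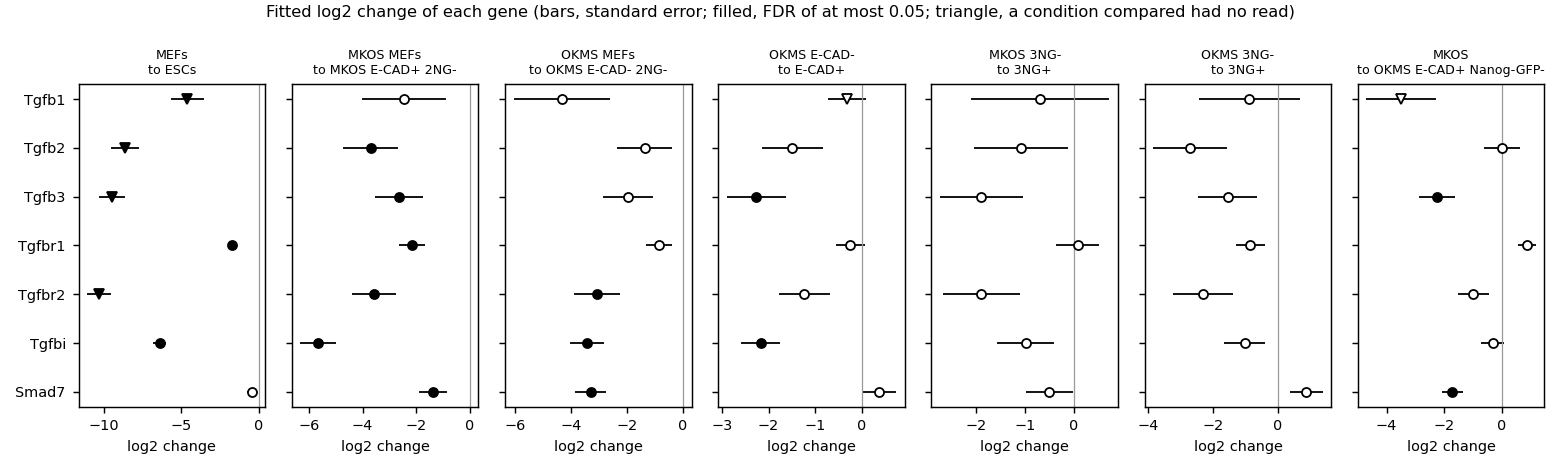
Fitted log2 change of each TGF-β gene (points, with bars of 1 standard error) in 7 comparisons, each panel with its own axis. Filled points passed an FDR of 0.05, triangles mark comparisons in which a condition had no read, and all filled points lie below 0. No point is filled in the panels from 3NG- to 3NG+ cells of either cassette.

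The change from MEFs to sorted intermediates was then examined for each cassette. MKOS cells in gate 2 had passed to an E-CAD+ state, and 6 of the 7 genes fell from MKOS MEFs to MKOS E-CAD+ 2NG- cells, beside 12.0% of tested genes called lower and 27.0% called in all (median log2 change -2.65, against 0 over all genes). None of the 7 genes overlapped between the 2 MEF and the 3 sorted libraries, including Tgfb1, which was not called. The share of all tested genes without such an overlap was not counted. Tgfbi was at 509 and 480 CPM in MKOS MEFs and at 14.4, 6.94 and 8.54 CPM in 2NG- cells, a 50.5-fold fall (FDR = 2.35e-08 by edgeR's quasi-likelihood test). The 2NG- mean was 2.01% of the MEF mean.

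Both receptors also fell in MKOS 2NG- cells. Tgfbr2 was at 102 and 101 CPM in MKOS MEFs and at 11.4, 8.71 and 5.83 CPM in 2NG- cells (log2 change -3.58 ± 0.82, FDR = 9.57e-04). Tgfbr1 was at 33.7 and 35.4 CPM in MEFs and at 9.08, 6.05 and 8.67 CPM in 2NG- cells (log2 change -2.15 ± 0.48, FDR = 6.03e-04), within the range of ESCs. Of the ligands, Tgfb2 was at 50.7 and 67.6 CPM in MEFs and at 9.49, 3.40 and 0.677 CPM in 2NG- cells (FDR = 0.00605). Tgfb3 was at 36.9 and 57.8 CPM in MEFs and at 11.2, 9.45 and 2.17 CPM in 2NG- cells (FDR = 0.0238), and it was not called without 2NG- replicate 3 (FDR = 0.0946), MKOS MEF replicate 1 (0.0512) or MKOS MEF replicate 2 (0.124). The 2NG- libraries thus differed among themselves in both ligands, with replicate 3 lowest. Tgfb1 was at 4.09 and 6.646 CPM in MEFs and at 0.816, 0.738 and 1.35 CPM in 2NG- cells, which did not pass the test (FDR = 0.247).

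Smad7 was at 27.2, 20.8 and 14.4 CPM in MKOS 2NG- cells, below both MKOS MEF libraries (log2 change -1.37 ± 0.51, FDR = 0.0439). This call was lost without 2NG- replicate 2 (FDR = 0.0792), 2NG- replicate 3 (0.125), MKOS MEF replicate 1 (0.101) or MKOS MEF replicate 2 (0.202), and in a fit of 41 libraries that leaves out the 7 sorted libraries absent from the study's own averages (0.0962). Without the libraries high in macrophage markers, which leaves 1 library of 2NG- cells, the log2 change of Smad7 was -1.96 (FDR = 0.0606). The other 5 genes called here, Tgfb2, Tgfb3, Tgfbr1, Tgfbr2 and Tgfbi, were called in that fit too, with an FDR between 2.61e-04 (Tgfbi) and 0.0313 (Tgfbr1).

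OKMS cells in gate 2 without E-CAD had epithelial markers (6 genes, summed) at 146, 212 and 107 CPM. These markers were at 39.2 and 34.4 CPM in OKMS MEFs and at 1207, 1187 and 1020 CPM in OKMS E-CAD+ 2NG- cells. Of the 7 genes, 3 fell from OKMS MEFs to OKMS E-CAD- 2NG- cells, beside 10.1% of tested genes called lower and 21.8% called in all (median log2 change -3.06, against 0 over all genes). Tgfbi was at 268 and 357 CPM in OKMS MEFs and at 41.5, 20.6 and 24.5 CPM in E-CAD- 2NG- cells (log2 change -3.43 ± 0.61, FDR = 5.25e-05). Smad7 was at 39.7 and 85.7 CPM in OKMS MEFs and at 8.54, 7.90 and 2.77 CPM in E-CAD- 2NG- cells, a 9.85-fold fall (FDR = 2.10e-05). Both genes were well separated between the groups.

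Tgfbr2 was at 63.5 and 120 CPM in OKMS MEFs and at 15.2, 6.87 and 10.4 CPM in E-CAD- 2NG- cells (log2 change -3.06 ± 0.81, FDR = 0.00507), and it was not called without OKMS MEF replicate 2 (FDR = 0.0572). Without the libraries high in macrophage markers, which leaves 1 library of E-CAD- 2NG- cells, the log2 change was -3.25. The other members did not pass the test. Tgfbr1 was at 19.9 and 53.7 CPM in OKMS MEFs and at 15.7, 10.6 and 34.7 CPM in E-CAD- 2NG- cells, which overlapped (FDR = 0.198), and it was called without E-CAD- 2NG- replicate 3 (log2 change -1.42, FDR = 0.04997). Tgfb2 was at 29.9 and 33.4 CPM in MEFs and at 18.97, 10.6 and 7.17 CPM in E-CAD- 2NG- cells (FDR = 0.339). Tgfb3 was at 39.3 and 55.8 CPM in MEFs and at 14.04, 15.4 and 7.34 CPM in E-CAD- 2NG- cells (FDR = 0.108). All 3 sorted libraries lay below both MEF libraries for each of these ligands. Tgfb1 had 3 reads in the 3 E-CAD- 2NG- libraries and 73 reads in the 2 MEF libraries (FDR = 0.0692).

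Since E-CAD divides the OKMS intermediates, the 6 E-CAD- and 6 E-CAD+ Nanog-GFP- libraries (gates 2 and 3) were compared. Tgfbi and Tgfb3 fell from E-CAD- to E-CAD+ cells, 2 of the 7 genes, beside 2.39% of tested genes called lower and 7.08% called in all (median log2 change -1.24, against 0.01 over all genes). Tgfbi was at 20.6, 45.0 and 87.1 CPM in E-CAD- cells and at 0.967, 9.94 and 21.6 CPM in E-CAD+ cells, overlapping at the edge of the ranges, a 4.50-fold fall (log2 change -2.17 ± 0.41, FDR = 3.87e-04 by edgeR's quasi-likelihood test). It was called in every refit that left out a library. Without the libraries high in macrophage markers, which leaves 1 library in each E-CAD- condition, the log2 change of Tgfbi was -2.14.

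Tgfb3 was at 2.45, 13.1 and 18.5 CPM in OKMS E-CAD- cells and at 0.170, 1.80 and 8.66 CPM in E-CAD+ cells, which overlapped (log2 change -2.26 ± 0.63, FDR = 0.0205). The call was lost without E-CAD+ 2NG- replicate 1 (FDR = 0.0629) or replicate 2 (0.0509), E-CAD- 3NG- replicate 2 (0.0613) or E-CAD+ 3NG- replicate 3 (0.0611). Without the libraries high in macrophage markers the log2 change was -0.76. Both E-CAD- conditions then held replicate 3 alone, with 7.34 (2NG-) and 2.45 CPM (3NG-) of Tgfb3, the lowest of each condition. Macrophage markers were at 56.4 to 881 CPM in E-CAD- and at 23.3 to 359 CPM in E-CAD+ libraries, Csf1r, Emr1, Cd68, Lyz2 and Ptprc each had a read in at least 1 library of both, and their part in the result was not tested. Fibroblast markers were at 348 to 571 CPM in E-CAD- and at 47.4 to 202 CPM in E-CAD+ libraries, without overlap, and their part was not tested either.

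Of the remaining members, Tgfb2 (14.4 and 4.41 CPM on average in E-CAD- and E-CAD+ cells, FDR = 0.171) and Tgfbr2 (13.4 and 5.61 CPM, FDR = 0.170) had means below those of E-CAD- cells without passing the test. Tgfb2 was called without E-CAD+ 2NG- replicate 3 (log2 change -2.42, FDR = 0.0364), the library with 9.95 CPM where the other two of its condition had 2.22 and 0 CPM. Tgfbr1 (17.6 and 13.5 CPM, 95% interval of the log2 change -0.85 to 0.35) and Smad7 (5.71 and 7.09 CPM, interval -0.36 to 1.09) did not differ beyond their error. Tgfb1 had 4 reads in the 6 E-CAD- libraries and 12 in the 6 E-CAD+ libraries, so no fold is given.

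Within the E-CAD states, gate 2 and gate 3 were also compared, and none of the 7 genes was called in either state by edgeR (FDR of at most 0.05) or DESeq2, beside 0.0448% of genes called in E-CAD- and 0.0384% in E-CAD+ cells. Tgfbi was at 73.7, 48.5 and 87.1 CPM in E-CAD- 3NG- cells, above all E-CAD- 2NG- libraries, and at 21.6, 10.7 and 11.3 CPM in E-CAD+ 3NG- cells, above the 4.94, 0.967 and 9.17 CPM of E-CAD+ 2NG- cells. The fitted log2 changes of Tgfbi were 1.23 (FDR = 0.736) and 1.29 (FDR = 0.936). At an unadjusted p under 0.05, 1 gene in E-CAD- cells (Tgfbi) and 3 genes in E-CAD+ cells (Tgfb1, Tgfb3 and Tgfbi) differed between the gates. In MKOS, no gene reached an unadjusted p under 0.05 between 2NG- and 3NG- cells, beside 0.390% of genes called.

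How the cassettes differ at a matched surface phenotype was asked with the E-CAD+ Nanog-GFP- cells of gates 2 and 3, 6 libraries of each cassette. Smad7 and Tgfb3 were lower in OKMS, 2 of the 7 genes, beside 6.69% of tested genes called lower and 11.9% called in all (median log2 difference -0.99, against -0.02 over all genes). Smad7 was at 14.4, 24.9 and 31.8 CPM in MKOS and at 3.24, 6.49 and 13.8 CPM in OKMS. Each MKOS library lay above each OKMS library, and the difference was 3.27-fold (log2 difference -1.71 ± 0.35, FDR = 8.26e-04 by edgeR's quasi-likelihood test). It was called in every refit that left out a library. Without the libraries high in macrophage markers, which leaves 1 library in each MKOS condition, the log2 difference was -1.25 (FDR = 0.0952).

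Tgfb3 was at 2.17, 10.3 and 25.6 CPM in MKOS and at 0.170, 1.80 and 8.66 CPM in OKMS E-CAD+ Nanog-GFP- cells, which overlapped (log2 difference -2.24 ± 0.63, FDR = 0.0147). Without the libraries high in macrophage markers the log2 difference was -0.29 (FDR = 0.975), and both gate conditions of MKOS then held replicate 3 alone, with 2.17 and 4.11 CPM of Tgfb3. The summed macrophage markers of these MKOS libraries were at 149 to 1790 CPM and those of the OKMS libraries at 23.3 to 359 CPM, and the fibroblast markers were at 298 to 789 and 47.4 to 202 CPM. No marker of either list was at 0 in all libraries of a cassette, and their part in both differences was not tested.

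Tgfbr1 had the opposite direction, at 5.25, 7.36 and 12.3 CPM in MKOS and at 9.99, 12.6 and 20.7 CPM in OKMS, and it just missed the threshold (log2 difference 0.88 ± 0.31, FDR = 0.0551). It was called with DESeq2 (Wald test, FDR = 0.0307), with DESeq2 size factors (0.0477), with the groups fitted alone (0.0470) and without MKOS 3NG- replicate 2 (0.0215), the MKOS library with the highest Tgfbr1. Tgfbr2 was at 5.83, 11.7 and 15.3 CPM in MKOS and at 0.341, 5.54 and 11.7 CPM in OKMS (FDR = 0.245). Tgfbi was at 6.94, 13.1 and 18.0 CPM in MKOS and at 0.967, 9.94 and 21.6 CPM in OKMS (95% interval of the log2 difference -1.11 to 0.48). Tgfb2 averaged 4.94 and 4.41 CPM (interval -1.24 to 1.26). Tgfb1 had 57 reads in the 6 MKOS libraries and 12 in the 6 OKMS libraries, 3 of which were at 0 (FDR = 0.0516).

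Whether the fall from MEFs itself differed between the cassettes was tested as an interaction, and none of the 7 genes was called, beside 1.43% of tested genes (DESeq2 also called 0). From MKOS MEFs to MKOS E-CAD+ Nanog-GFP- cells 6 genes fell, beside 15.7% of tested genes called lower (32.5% in all), and from OKMS MEFs to OKMS E-CAD+ Nanog-GFP- cells all 7 fell, beside 17.0% called lower (33.8% in all). Smad7 fell by 1.20 on the log2 scale in MKOS and by 3.09 in OKMS. The difference between these changes was -1.88 ± 0.67, with an unadjusted p of 0.00790 in edgeR's quasi-likelihood test and an FDR of 0.173, and Smad7 was the 1 gene of the 7 with an unadjusted p under 0.05. Tgfb3 fell by 2.13 in MKOS and by 4.32 in OKMS (difference FDR = 0.414), and Tgfbi fell by 5.41 and by 4.99 (difference 0.42 ± 0.76). The call of Tgfb3 in MKOS was lost without 3NG- replicate 3 (FDR = 0.0506), MKOS MEF replicate 1 (0.0613) or MKOS MEF replicate 2 (0.171). That of Smad7 in MKOS was lost without 3NG- replicate 3 (FDR = 0.0605), 2NG- replicate 3 (0.0502), MKOS MEF replicate 1 (0.0966) or MKOS MEF replicate 2 (0.213), and with 41 libraries (0.0620). In OKMS, calls of 3 genes depended on a MEF library. Tgfb1 was not called without OKMS MEF replicate 2 (FDR = 0.12002), Tgfb2 without OKMS MEF replicate 1 (0.0549) or replicate 2 (0.0552), and Tgfbr1 without OKMS MEF replicate 2 (log2 change -0.63, FDR = 0.470).

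**Figure D3:**
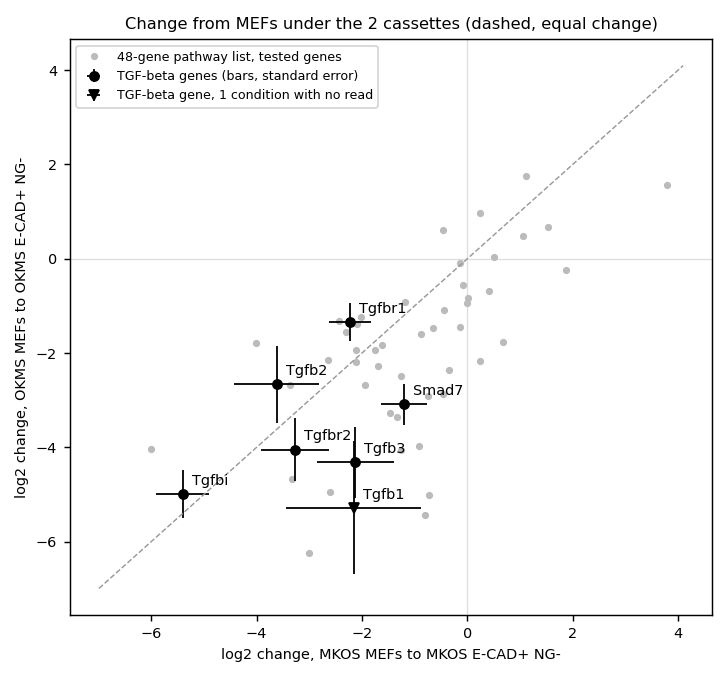
Fitted log2 change between MEFs and Nanog-GFP- cells with E-CAD, in MKOS (horizontal) and OKMS (vertical), for the TGF-β genes (black, bars of 1 standard error; triangle, a condition with no read) and 48 pathway genes (grey), with a dashed line of equal change. Tgfbi lies near the line at -5.41 and -4.99, and Smad7 lies below it at -1.20 and -3.09.

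Activation of Nanog-GFP was examined by comparing 3NG- with 3NG+ E-CAD+ cells, and none of the 7 genes was called in MKOS, where 1.58% of tested genes were, or in OKMS, where 6.26% were (DESeq2 called 0 in both). The median log2 change of the 7 genes was -0.98 in MKOS and -1.03 in OKMS, against -0.04 and -0.06 over all genes. At an unadjusted p under 0.05 were Tgfb3 and Tgfbr2 in MKOS, and Tgfb2 and Tgfbr2 in OKMS. In MKOS, Tgfbr2 was at 12.1, 15.3 and 15.0 CPM in 3NG- cells and at 9.46, 0 and 1.44 CPM in 3NG+ cells, without overlap. Replicate 1 of the MKOS 3NG+ cells was the highest of its group in Tgfb2, Tgfb3, Tgfbr2, Tgfbi and Smad7. Its macrophage markers summed to 844 CPM, where replicates 2 and 3 had 223 and 67.0 CPM. Its fibroblast markers were at 469 CPM against 70.9 and 240 CPM, and its keratinocyte markers (3 genes, summed) at 19.8 CPM against 0.593 and 1.13 CPM. The part of these markers was not tested. Without replicate 1, Tgfb3 (log2 change -3.93, FDR = 0.0367) and Tgfbr2 (-3.82, FDR = 0.0268) were called in MKOS.

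In OKMS, Tgfbr2 was at 7.41, 11.7 and 2.83 CPM in 3NG- cells and at 2.02, 2.10 and 0.143 CPM in 3NG+ cells (log2 change -2.30 ± 0.92, FDR = 0.127). Tgfbr1 was at 13.2, 20.7 and 12.2 CPM in 3NG- cells and at 6.81, 3.497 and 10.4 CPM in 3NG+ cells (FDR = 0.265). Neither receptor overlapped between the populations, and neither was called. The share of all tested genes without such an overlap was not counted. The 2.10 CPM of Tgfbr2 in 3NG+ replicate 2 were 3 reads, the floor of that library. Smad7 was at 5.44, 13.8 and 7.06 CPM in 3NG- cells and at 10.6, 21.0 and 11.7 CPM in 3NG+ cells (FDR = 0.314). The difference between the cassettes in the change from 3NG- to 3NG+ cells was called for none of the 7 genes (none had an unadjusted p under 0.05, and DESeq2 called 0), beside 0.0256% of tested genes, and for Smad7 it was 1.37 ± 0.69 on the log2 scale (FDR = 0.687). In 3NG+ cells, no member was called between the cassettes, none had an unadjusted p under 0.05, and 0.685% of genes were called. Smad7 averaged 17.8 ± 8.10 CPM (SD, n = 3) in MKOS and 14.4 ± 5.70 CPM in OKMS 3NG+ cells.

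Between 3NG+ cells and iPSCs without doxycycline, Tgfb3 fell in MKOS, from 11.1, 0.395 and 1.34 CPM to 0 and 0.177 CPM (FDR = 0.0499), where 1.32% of genes were called lower and 2.14% in all. The call was lost without 3NG+ replicate 1 (FDR = 0.346) or either iPSC library (0.471 and 0.170), without the libraries high in macrophage markers (0.311), and with DESeq2 size factors (0.0502). At this MKOS step 5 of the 7 genes had an unadjusted p under 0.05 by edgeR (Tgfb1, Tgfb2, Tgfb3, Tgfbr2 and Tgfbi), and DESeq2 called 2. The 2 MKOS iPSC libraries held 1 read of Tgfb3 together, under the floor. No member was called from OKMS 3NG+ cells to iPSCs, from iPSCs to ESCs of either cassette, between MKOS and OKMS MEFs, or between iPSCs in 2i and without doxycycline, where 0.614%, 0.307%, 0.608%, 0.102% and 4.34% of genes were called. In these comparisons 1 gene had an unadjusted p under 0.05 from OKMS 3NG+ cells to iPSCs (Tgfb3) and 1 from OKMS iPSCs to ESCs (Tgfbr1), and DESeq2 called 0. Tgfbr1 was at 4.33 and 7.84 CPM in OKMS iPSCs and at 22.0 and 13.9 CPM in TNG OKMS ESCs (FDR = 0.313). Tgfbr2 had its highest pluripotent level in MKOS iPSCs in 2i, at 4.11 and 4.62 CPM, where OKMS iPSCs in 2i had 1.94 and 0 CPM. D6 iPSCs had 30.0 and 13.05 CPM of Tgfbi, above the 0 to 8.67 CPM of all other iPSC and ESC libraries.

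Ordered by condition mean, MEFs took the first 3 places for Tgfb2, Tgfb3, Tgfbr1, Tgfbr2 and Tgfbi. Among 19 neighboring pairs of conditions in each order, libraries did not overlap in 3 pairs for Tgfb2 and Tgfbi, in 2 for Tgfbr1, in 1 for Tgfb3, Tgfbr2 and Smad7 and in 0 for Tgfb1, so most neighbors did not differ beyond their spread. For Tgfbr2 and Tgfb3 the separate pair lay between the lowest MEFs (WT) and the highest sorted cells, OKMS E-CAD- 3NG- cells with 15.9 ± 4.12 CPM of Tgfbr2 and MKOS 3NG- cells with 16.45 ± 11.1 CPM of Tgfb3 (SD, n = 3). Smad7 had another order, in which Tg MEFs came first (OKMS 62.7 ± 32.5 and MKOS 52.8 ± 10.8 CPM, n = 2), most pluripotent cells and MKOS intermediates followed, WT MEFs were at 12.4 ± 4.59 CPM, and the 4 OKMS Nanog-GFP- populations were lowest, at 5.02 to 8.77 CPM.

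Across the 20 condition means of log2(CPM + 1), Tgfbr2 followed Tgfb2 (Pearson r = 0.974) and Tgfb3 (0.956), and Tgfb2 followed Tgfb3 (0.945), whereas Smad7 had correlations of -0.11 to 0.48 with the other 6 genes. Over the means of the 8 sorted populations alone, Smad7 had a correlation of 0.900 with Tgfb1, of -0.81 with Tgfbr1 and of -0.50 to 0.22 with the other 4 genes, and Tgfbr2 had one of 0.894 with Tgfb2 and of 0.869 with Tgfb3. These correlations are descriptive, and the conditions share the contrast between fibroblasts and pluripotent cells. In the sorted populations Tgfb1 averaged 0 to 1.61 CPM, so its correlations there rest on few reads. It had 0, 1 and 3 reads in OKMS E-CAD+ 2NG-, E-CAD- 3NG- and E-CAD- 2NG- cells. Among 7479 genes with a mean of at least 10 CPM, those most like Tgfb3 were Ccdc80 (r = 0.987), Col5a1 and Prss23 (both 0.981), and those most like Tgfbr2 were Tpm4 (0.982), Il4ra and Angptl2 (both 0.980). Tgfbi was closest to St3gal1 (0.956), Txndc5 (0.955) and Igfbp4 (0.951), and Tgfbr1 to Wbp1 (0.907) and 4933434E20Rik (0.902). Smad7 was closest to Med13l (0.916), Gcnt2 (0.900) and Rab5a (0.883). Tgfb1 and Tgfb2 averaged under 10 CPM and were not matched.

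The surrounding pathway was followed with 48 other genes in 5 roles, all of which were tested. From MEFs to ESCs 37 of them were called, 32 lower and 5 higher, with a median log2 change of -2.15, beside 30.4% of all tested genes lower and 60.1% in either direction. All 16 target genes fell (median -4.24), for example Tagln, an actin-binding protein of contractile cells, from 1495 to 2.64 CPM (log2 change -9.55, FDR = 1.37e-13 by edgeR's quasi-likelihood test). Of 12 genes of ligand storage and activation, 9 fell and 1 rose. Thbs1, which activates latent TGF-β, went from 708 to 1.964 CPM (FDR = 4.62e-13), and Lrrc32, which encodes GARP, the surface anchor of latent TGF-β, went from 15.1 CPM to no read in ESCs, at least 29.9-fold lower against the floor of 3 reads per library.

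Other roles changed less uniformly from MEFs to ESCs. Of 6 co-receptors and receptor partners 2 fell, Tgfbr3 (betaglycan, from 71.7 to 0.305 CPM, FDR = 1.32e-12) and the adaptor Dab2 (from 55.8 to 2.35 CPM, FDR = 2.50e-09). Of the 3 Smads that carry the signal, Smad3 fell from 20.9 to 1.12 CPM (FDR = 1.71e-08), and Smad2 and Smad4 were not called. The 11 inhibitors were divided, with 4 higher and 4 lower. Tgif1, a transcriptional corepressor of SMADs, rose from 50.5 to 142 CPM (log2 change 1.58 ± 0.21, FDR = 1.49e-08), and Pmepa1, which traps receptor-regulated SMADs, fell from 64.9 to 7.19 CPM (FDR = 9.72e-10).

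**Figure D4:**
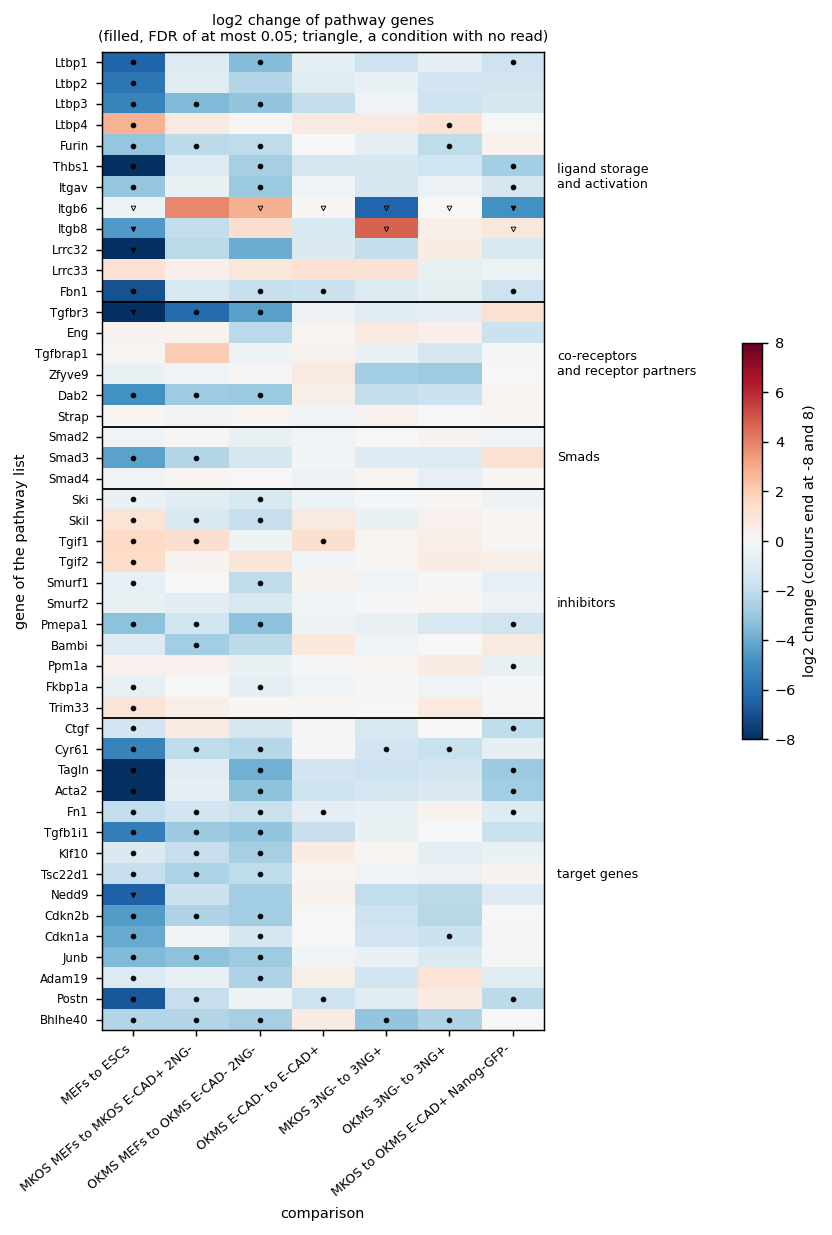
Fitted log2 change (colors, ending at -8 and 8) of the pathway genes (rows, grouped by role) in 7 comparisons (columns). Filled marks passed an FDR of 0.05 and triangles mark a condition with no read, and every target gene shown was called lower from MEFs to ESCs, while the genes called between the cassettes were all lower in OKMS.

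In intermediates, 19 of the 48 genes were called from MKOS MEFs to E-CAD+ 2NG- cells (18 lower, 1 higher) and 26 from OKMS MEFs to E-CAD- 2NG- cells (all lower), including 10 and 13 of the 16 target genes. Of all tested genes, 27.0% and 21.8% were called in these comparisons. Without the libraries high in macrophage markers the counts were 12 and 19, and the shares of all genes were 15.4% and 11.2%. From OKMS E-CAD- to E-CAD+ cells 4 genes were called, of which Tgif1 was higher and Fbn1 (fibrillin 1), Fn1 (fibronectin) and Postn (periostin) were lower, beside 7.08% of all tested genes. The call of Fn1 was lost without E-CAD- 2NG- replicate 1 (FDR = 0.0628) or replicate 2 (0.0501), E-CAD- 3NG- replicate 1 (0.0610), E-CAD+ 2NG- replicate 2 (0.0583) or E-CAD+ 3NG- replicate 3 (0.0614). Without the libraries high in macrophage markers, which leaves 1 library in each E-CAD- condition, the log2 change of Fn1 was -0.36. From 3NG- to 3NG+ cells, 2 genes were called in MKOS and 5 in OKMS, beside 1.58% and 6.26% of all tested genes. The target genes Cyr61 and Bhlhe40 were lower in both, OKMS cells also had lower Furin, which cleaves the ligand precursors, and lower Cdkn1a, and Ltbp4, a latent TGF-β binding protein, was higher. The fit that left out the libraries high in macrophage markers called 3 genes in OKMS, beside 4.73% of all genes. In MKOS it left 1 library of 3NG- cells.

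Between the cassettes, 13 of the 48 genes (27.1%) were called in E-CAD+ Nanog-GFP- cells and all 13 were lower in OKMS, beside the 6.69% of all tested genes given above. Among them were Ltbp1, Thbs1, Itgav, Itgb6 and Fbn1 of ligand storage and activation, the inhibitors Pmepa1 and Ppm1a, and the target genes Ctgf, Tagln, Acta2, Fn1 and Postn. Ctgf, a matricellular protein, averaged 95.5 CPM in MKOS (38.1 to 170 CPM) and 22.2 CPM in OKMS (14.8 to 32.9 CPM), with an FDR of 1.66e-04 by edgeR's quasi-likelihood test. Fbn1 averaged 45.6 CPM in MKOS (28.9 to 60.5 CPM) and 13.5 CPM in OKMS (6.83 to 21.3 CPM), with an FDR of 0.00116. Neither Ctgf nor Fbn1 overlapped between the cassettes, whereas 10 of the 13 genes did. The 13 genes had been called on the same libraries, and the share of all tested genes without an overlap was not counted. Without the libraries high in macrophage markers 3 genes were called, 2 of them among the 13, including Postn, beside 4.3% of all tested genes. In that fit the log2 difference was -0.72 for Ctgf (FDR = 0.229), -1.25 for Fbn1 (0.127), -0.91 for Ltbp1 (0.253), -0.74 for Itgav (0.330), -0.51 for Fn1 (0.392), -0.81 for Tagln (0.625), -0.61 for Acta2 (0.631), -0.28 for Thbs1 (0.929) and 0.21 for Pmepa1 (0.933). Other settings ended the calls of Itgb6 and Ppm1a. Itgb6 was not called with 41 libraries (FDR = 0.170), without the filter on low counts (0.110), with a replicate block (0.0538), without the libraries high in macrophage markers (0.345) or without any 1 of the 12 libraries except MKOS 2NG- replicate 3. Ppm1a was not called with 41 libraries (FDR = 0.121), without the filter (0.0884), with the libraries compared alone (0.0515), without the libraries high in macrophage markers (0.460) or without any 1 of the libraries except MKOS 2NG- replicates 1 and 3 and OKMS 3NG- replicate 3. The summed macrophage and fibroblast markers of each cassette, given above, had lower ranges in OKMS. Keratinocyte markers (3 genes, summed) were at 6.10, 79.0 and 160 CPM in MKOS and at 0.235, 17.0 and 23.6 CPM in OKMS (lowest, median, highest). Pluripotency markers were at 2970, 6047 and 10174 CPM in MKOS and at 795, 1985 and 5513 CPM in OKMS. The part of these 4 marker lists in the differences was not tested.

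The fall from MEFs itself, tested as above, differed between the cassettes for 3 of the 48 genes, beside the 1.43% of all genes. Ltbp1, which stores latent TGF-β in the matrix, fell further in OKMS by a log2 difference of -2.80 ± 0.69 (FDR = 0.0243), the integrin subunit Itgav by -2.40 ± 0.61 (FDR = 0.0327) and Acta2, smooth muscle actin, by -4.28 ± 1.17 (FDR = 0.0481). Each of these calls was lost without any 1 of the 4 Tg MEF libraries, with an FDR of 0.0542 to 0.214 for Ltbp1, 0.0542 to 0.246 for Itgav and 0.134 to 0.319 for Acta2. Ltbp1 and Acta2 were also not called with the libraries compared alone (FDR = 0.0507 and 0.0533), and Itgav was not called without MKOS 3NG- replicate 1 (0.0526) or 2NG- replicate 1 (0.0568). Acta2 was not called without replicate 1 or 2 of either MKOS condition, or without replicate 1 or 3 of either OKMS condition (FDR = 0.0509 to 0.0872). Without the libraries high in macrophage markers, which leaves 1 library in each MKOS Nanog-GFP- condition, the log2 difference was -2.09 for Ltbp1, -1.80 for Itgav and -2.09 for Acta2.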

How the data were processed

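RNA of 48 libraries from 20 conditions was sequenced by the authors with STRT, and reads were counted per transcript. The deposited values are raw read counts, made by the authors with the STRT pipeline, and no normalization was applied by them. The submitters' processing notes name Bowtie 0.12.7 and mm10, while the methods name mm9. Of 20698 gene symbols shared with RefSeq GRCm38, 99.1% had the file's position within the gene (200-base margin), so GRCm38 positions are given. A count from the 5′ end depends on the annotated start, and PCR copies were not removed, so floors cover counting error only. Repeats and spike-ins were left out of library sizes.

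Conditions and replicate numbers were taken from the labels. The labels do not say whether replicates are separate cultures, so p-values measure the spread between these libraries, which may be technical. The counts went into edgeR 4.0.16 (R 4.3.3, filterByExpr by condition, TMM, quasi-likelihood test, 1 coefficient for each of 20 conditions, 15630 genes, common dispersion 0.217), and a gene was called at a Benjamini-Hochberg FDR no higher than 0.05. SE is the log2 change divided by the square root of F. Fits that left out a library kept the dispersion trend of all libraries. Alternatives were DESeq2 1.42.0, its size factors, no filter on low counts, the replicate number as a block, 41 libraries, the compared libraries alone, and leaving out each library. The fit without the 10 libraries over 500 CPM of macrophage markers, which leaves 1 library in 4 conditions that is assumed to vary like the others, and that with Tg MEFs only were chosen after seeing the data. Members, pathway list and markers were chosen with earlier results of these data known, from textbook roles. All 7 members were named. Of the pathway list, genes called between the cassettes and, for each role, the 2 with the largest change among those called from MEFs to ESCs were named, and Smad2, Smad4, Cyr61, Bhlhe40, Furin, Cdkn1a and Ltbp4 were named after their values were seen. Of the genes these rules give, 2 are not reported here. In simulated counts of 14891 genes, every library was drawn from 1 profile, the mean over all conditions. In the libraries of MKOS E-CAD+ 2NG- cells alone, 200 genes were changed 4-fold. Against MKOS MEFs, the test called 134 genes, 133 of them changed. The simulated conditions held no other difference, so the calls in the real comparison were not checked by it. Tables were made with Python 3.11.15, pandas 2.3.3 and NumPy 2.4.6, and figures with Matplotlib 3.10.9.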

Additional observations from a re-analysis of the deposited data

Results flagged for a closer look

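The shift between MEFs and Nanog-GFP- cells with E-CAD differed between the cassettes for 3 pathway genes when the difference itself was tested (OKMS minus MKOS, log2). The difference was -4.28 for Acta2, -2.40 for Itgav and -2.80 for Ltbp1. Each call was lost when any 1 of the 4 Tg MEF libraries was left out (FDR = 0.0542 to 0.319), and without the libraries high in macrophage markers the differences were -2.09 (FDR = 0.332), -1.80 (0.194) and -2.09 (0.156), in the same order. Among the 7 TGF-β genes no difference of this kind passed the test.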

How the results depend on the processing

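Counts of called members were unchanged or within 1.5 times with DESeq2, DESeq2 size factors and 41 libraries. In a fit with replicate block, 4 members were called from OKMS MEFs to E-CAD- 2NG- cells (Tgfb3 was added, FDR = 0.0442). No other of the 8 counts changed. Of all genes, 23% were called there with the block, against 21.8% in the main fit. Libraries with the same number correlated by 0.145 on average over 84 pairs (-0.106 to 0.583), and 20 of 24 sorted libraries correlated best with their own number, a hint from the data only. With the libraries compared alone, 5 members were called from OKMS MEFs to E-CAD- 2NG- cells, beside 28.1% of all genes. Without the filter on low counts, 4 were called from OKMS E-CAD- to E-CAD+ cells, 3 from 3NG- to 3NG+ cells in each cassette and 1 in the cassette difference (Smad7, FDR = 0.0225). The shares of all genes called without the filter were 8.06%, 4.49% (MKOS), 7.35% (OKMS) and 3.09%. In the main fit they were 7.08%, 1.58%, 6.26% and 1.43%. Without the libraries high in macrophage markers, 1 library was left in each MKOS E-CAD+ Nanog-GFP- and each OKMS E-CAD- condition. Pmepa1 was reversed between the cassettes there (log2 difference 0.21, against -1.59 in the main fit), and the values of Tgfb3 and Smad7 are given above. Leaving out a library gave 1 to 3 calls from OKMS E-CAD- to E-CAD+ cells and 0 to 2 from MKOS 3NG- to 3NG+ cells. The shares of all genes called in those refits are not given. The causes were not tested.

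Pathway counts that moved by over 1.5 times were 11 (no filter) and 7 (block) against 4 from E-CAD- to E-CAD+ cells. From 3NG- to 3NG+ cells they were 7 (41 libraries), 13 (no filter), 6 (block), 4 (DESeq2) and 0 (without libraries high in macrophage markers) against 2 in MKOS, and 8 (41 libraries), 11 (no filter), 1 (compared alone) and 3 (without libraries high in macrophage markers) against 5 in OKMS. For the cassette difference they were 8 (41 libraries), 10 (no filter) and 7 (block) against 3. Without libraries high in macrophage markers, counts also moved for the cassette difference, from MKOS MEFs to 2NG- cells and between the cassettes. In each of these, 1 library was left in a condition compared. Shares of all genes called also moved. From E-CAD- to E-CAD+ cells they were 8.06% (no filter) and 7.83% (block) against 7.08%. From 3NG- to 3NG+ cells in MKOS they were 3.62% (41 libraries), 4.49% (no filter), 2.7% (block) and 4.79% (DESeq2) against 1.58%. In OKMS they were 9.47% (41 libraries), 7.35% (no filter), 3.84% (compared alone) and 4.73% (without libraries high in macrophage markers) against 6.26%. For the cassette difference they were 2.21% (41 libraries), 3.09% (no filter) and 2.01% (block) against 1.43%. TMM-scaled CPM moved 2 of 140 levels by over 1 SD, Tgfbr2 in MKOS MEFs (100.9 CPM) and Smad7 in TNG ESCs (16.1 CPM). Of 18 iPSC and ESC libraries, 13 had under 3 reads of Tgfb1, 13 of Tgfb2, 16 of Tgfb3 and 11 of Tgfbr2, and between such libraries no difference was detectable at this depth.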
